A study of Homo sapiens with 12 samples.

Results

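The replication-dependent histone genes of human chromosome 6 were examined in the chromatin of RWPE-1 cells, through the peaks of 5 histone H3 marks that touch 3 windows of the hg19 genome. The windows run on chromosome 6 from 26010000 to 26300000 (the first, 290 kb), from 27090000 to 27120000 (the second, 30 kb) and from 27760000 to 27870000 (the third, 110 kb). They were chosen by position, for the histone genes they hold, with the H3K4me3 and H3K27ac peaks measured there in these lists already known. A peak belonged when it shared at least 1 base with a window. The number, width and spacing of those peaks are therefore a description and are given without a test. Of 457217 peaks on chromosomes 1 to 22 and X, 199 were members: 40 of H3K4me3, 79 of H3K27ac, 71 of H3K4me1, 9 of H3K36me3 and 0 of H3K27me3. The comparison is with the flanks, the sequence within 1 Mb on either side of each window less the windows themselves, which came to 3.43 Mb with 915 peaks.

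RWPE-1 is an established prostate epithelial line, made to grow without limit by human papillomavirus 18. Every library came from cells below passage 20, kept in a serum-free keratinocyte medium with 5 ng/ml epidermal growth factor and 0.05 mg/ml bovine pituitary extract. No treatment was compared, and the sources used here do not state where in the cell cycle the cells were. Each mark had 2 replicate libraries of immunoprecipitated, sonicated chromatin, and 1 peak list combines them, so the spread between replicates cannot be given. Depth is unknown, because the lists give peaks and scores without reads. The cell type could not be checked against marker genes, because no gene positions of hg19 were at hand.

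Replication-dependent histone genes supply the core histones H2A, H2B, H3 and H4 and the linker histone H1 to newly replicated DNA. They lie in clusters, are transcribed in S phase at nuclear foci called histone locus bodies, lack introns, and give mRNAs that end in a stem-loop in place of a poly(A) tail. The marks read here differ in where they are usually found. H3K4me3 marks promoters, H3K27ac active promoters and enhancers, and H3K4me1 enhancers and the borders of promoters. H3K36me3 marks the bodies of transcribed genes and H3K27me3 is laid down by Polycomb complexes at repressed genes. The H3 genes among the members encode the very protein that carries these marks.

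The list of members held 52 genes, 32 assigned to the first window, 4 to the second and 16 to the third. They were 6 H1, 10 H2A, 14 H2B, 10 H3 and 12 H4 genes. In the order of the RefSeq table of GRCh38, 11 neighbouring pairs joined an H2A to an H2B gene, and 8 of these pairs were divergent, with the starts facing away from each other, as in HIST1H2BC and HIST1H2AC or HIST1H2AM and HIST1H2BO. The 1 other protein-coding gene among the members of the first window was HFE, a regulator of iron uptake, and there was none among those of the second and the third. The build of that table differs from that of the peaks, so no peak was given to a gene.

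Promoters of 48 of the 52 members were found in the RefSeq table (GRCh38.p14). They are shown because the windows hold 5 gene families whose promoters differ in their letters. The first H3, H4, H2A and H2B member with an entry is printed, as the 250 bases before the annotated start on the gene's own strand. HIST1H3A lies on the plus strand and the other 3 on the minus strand. Capitals mark TATAAA (the TATA box), CCAAT (the CCAAT box), ATTTGCAT (the octamer known from H2B promoters), GGTCCG (from the H4 element called site II) and their reverse complements.
HIST1H3A: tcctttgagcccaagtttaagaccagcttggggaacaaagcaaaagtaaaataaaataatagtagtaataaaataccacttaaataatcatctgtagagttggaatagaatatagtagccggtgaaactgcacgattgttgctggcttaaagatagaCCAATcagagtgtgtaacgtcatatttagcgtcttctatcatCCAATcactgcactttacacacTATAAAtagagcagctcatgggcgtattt
HIST1H4B: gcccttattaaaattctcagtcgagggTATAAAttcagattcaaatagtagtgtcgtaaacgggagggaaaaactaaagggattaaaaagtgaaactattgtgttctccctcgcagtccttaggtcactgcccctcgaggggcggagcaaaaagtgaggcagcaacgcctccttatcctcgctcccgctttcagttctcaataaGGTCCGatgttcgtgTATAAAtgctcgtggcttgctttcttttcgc
HIST1H2AB: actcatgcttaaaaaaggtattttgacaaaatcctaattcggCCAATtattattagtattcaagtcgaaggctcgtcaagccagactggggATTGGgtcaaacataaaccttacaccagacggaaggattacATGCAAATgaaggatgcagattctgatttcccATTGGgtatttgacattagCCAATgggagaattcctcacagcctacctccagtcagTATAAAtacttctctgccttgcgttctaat
HIST1H2BB: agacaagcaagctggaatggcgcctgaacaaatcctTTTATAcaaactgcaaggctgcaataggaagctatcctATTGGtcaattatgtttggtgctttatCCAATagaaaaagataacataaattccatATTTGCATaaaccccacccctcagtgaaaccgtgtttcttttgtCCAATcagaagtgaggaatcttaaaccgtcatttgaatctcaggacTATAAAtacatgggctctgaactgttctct
All 4 had TATAAA on their own strand between 31 and 24 bases before the start. HIST1H4B had no CCAAT, and its GGTCCG ended 41 bases before the start.

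The letters followed the families. These counts cover 250 bases before and 50 after the start, on either strand, with 95% Wilson intervals for counting error. A member counted when any of its promoter entries held the letters, while the promoters of the whole table were counted entry by entry. HIST1H2BD, HIST1H3D, HIST1H3E and HIST1H2BK had 2 entries each. TATAAA was found in 32 of 48 members (66.7%, 52.5 to 78.3), against 11.5% of the 35116 promoters of the table. CCAAT was found in 41 of 48 members (85.4%, 72.8 to 92.8), against 34.6% of all promoters. It was in each of the 6 H1, 10 H2A, 14 H2B and 8 H3 promoters and in 3 of 10 H4 promoters. ATTTGCAT was in 8 of 10 H2A and 11 of 14 H2B promoters, in 1 of 8 H3 promoters and in no H1 or H4 promoter, against 1.77% of all promoters. On the gene's own strand alone it was in 1 of 10 H2A and 10 of 14 H2B promoters. The 2 promoter windows overlap in each of the 8 divergent H2A and H2B pairs, so members of a pair share letters and are not independent. GGTCCG was in 9 of 10 H4 promoters, against 11.3% of all promoters, and HIST1H4G was the H4 gene without it. It was also in 1 of 8 H3 promoters, that of HIST1H3F, and in no H1, H2A or H2B promoter. A further motif, AAACACA, known as the H1 box, was in all 6 H1 promoters and in no other member, against 5.64% of all promoters. A match describes these letters and shows no binding.

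H3K4me3 and H3K27ac peaks were more frequent in the windows than in the flanks, and covered a larger share of the sequence. H3K4me3 peaks lay at 93.0 per Mb in the windows, 47.2 per Mb in the flanks and 9.44 per Mb over the whole list. Peaks of this mark covered 23.4% of the windows, 6.63% of the flanks and 1.52% of the chromosomes. For H3K27ac the densities were 184 peaks per Mb in the windows and 41.1 in the flanks, and the covered shares were 53.6% and 6.42%. The windows therefore held 1.97 times the H3K4me3 peaks of the flanks per Mb and 3.52 times the covered share, and for H3K27ac 4.47 and 8.35 times. With 1 list per mark there was no test of these differences.

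**Figure D1:**
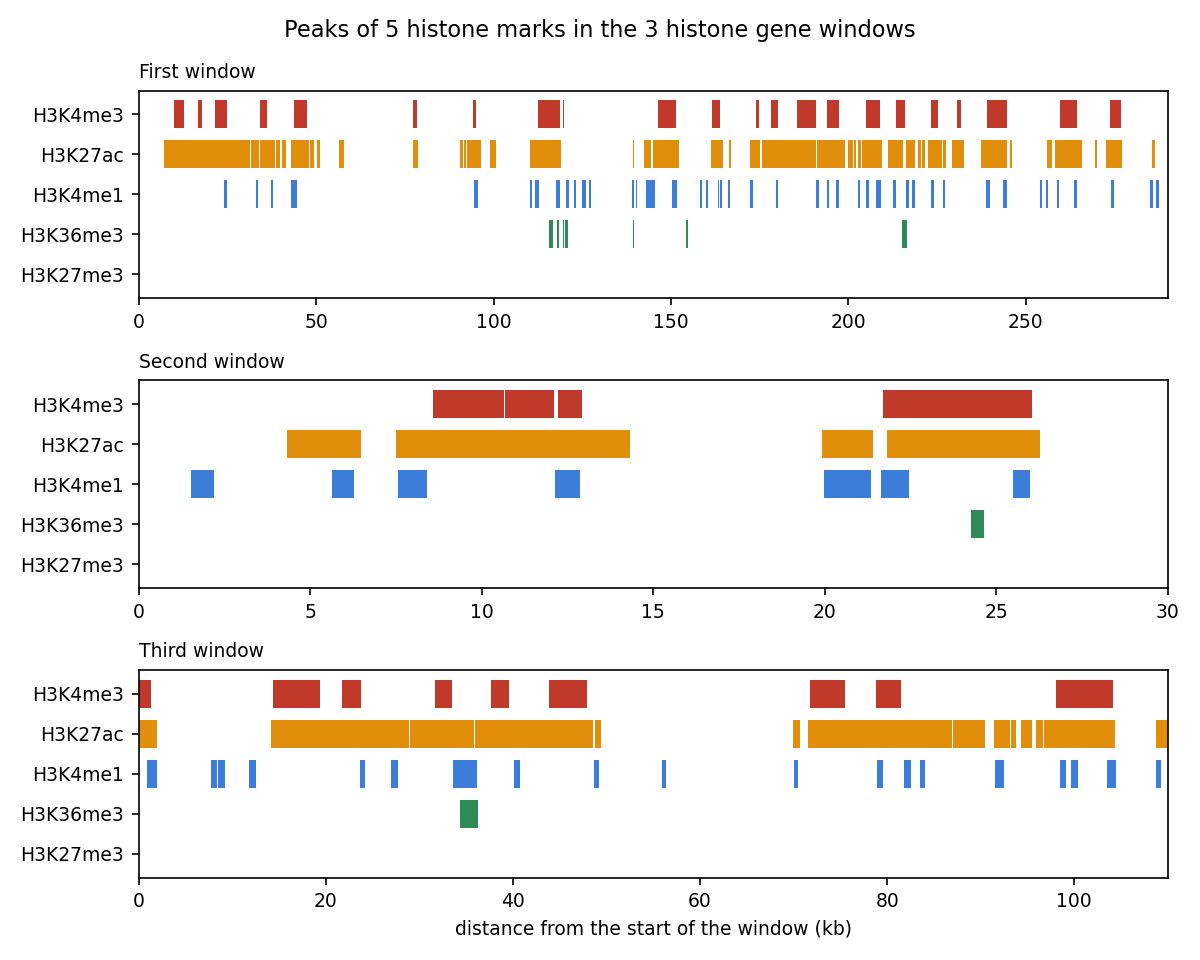
Peaks of the 5 marks, in rows, in each of the 3 windows, with distance from the start of the window in kb on the horizontal axis, which is scaled to the length of each window. The 79 H3K27ac peaks run almost without break over some long stretches. Of the 40 H3K4me3 peaks, 39 touch H3K27ac, inside or outside those stretches, and the H3K27me3 row is empty.

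The 3 windows were alike in this. H3K4me3 covered 21.9% of the first window with 24 peaks, 28.5% of the second with 5 peaks and 25.9% of the third with 11. H3K27ac covered 50.4%, 49.8% and 63.1% of the same windows with 55, 4 and 20 peaks. The flanks were not alike. H3K4me3 covered 0.763% of the 1 Mb before the first window with 4 peaks, 7.70% of the sequence between the first and the second window, 11.5% of that between the second and the third, and 8.55% of the 1 Mb after the third. H3K27ac covered 3.35%, 7.61%, 10.4% and 6.04% of these 4 flanks. Each window lay above all 4 flanks for both marks, and the size of the difference depended on the flank chosen.

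**Figure D2:**
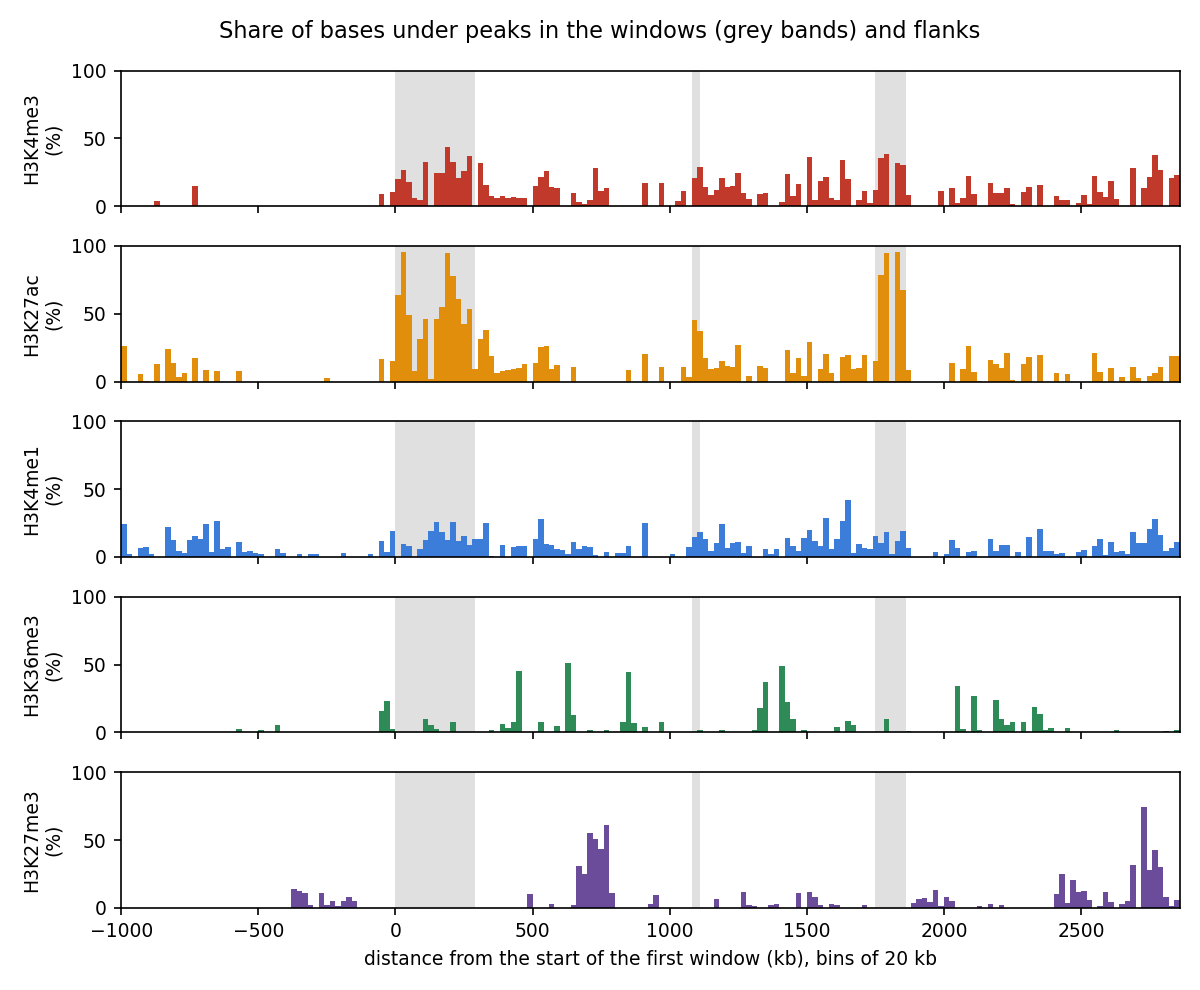
Share of bases under peaks in bins of 20 kb, in percent, for each mark (rows) over the windows, shown as grey bands, and the 1 Mb on either side, with distance from the start of the first window in kb on the horizontal axis. H3K27ac rises in the grey bands, and H3K27me3 lies on either side of them and is absent within.

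Against the rest of the genome, the first window was set beside 9779 stretches of the same 290 kb, laid end to end over chromosomes 1 to 22 and X. Left out were 5 that touch a window and all stretches without a peak of any of the 5 marks. Its 24 H3K4me3 peaks were matched or exceeded in 10 stretches (0.102%), where the median stretch held 2 and the fullest 37. Its H3K4me3 cover of 21.9% was reached by none, the highest being 19.8%. Its 55 H3K27ac peaks and H3K27ac cover of 50.4% were also reached by none, with the highest at 49 peaks and 42.4%. The window was drawn to fit the genes and the stretches were not, and it was chosen with these values known, so the ranks are a description.

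H3K4me3 peaks in the windows were wide. Their widths ran from 400 to 6056 bases, with a median of 2186 bases (quartiles 1214 and 3362). The median was 1276 bases in the flanks and 1328 in the whole list. Of the 40, 9 (22.5%) were wider than 3607 bases, the width that 5% of the whole list exceeds, and in the flanks 1 of 162 (0.617%) was. The widest lay in the third window from 27858087 to 27864142 (6.06 kb), at rank 111 of the 28639 H3K4me3 peaks by width. Next came 3 peaks of the first window, from 26249185 to 26254733 (5.55 kb, rank 184), from 26123259 to 26128697 (5.44 kb, rank 205) and from 26195524 to 26200893 (5.37 kb, rank 223). These 4 were about as wide as each other, and none was among the 100 widest of the genome.

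Further wide H3K4me3 peaks of the first window ran from 26156339 to 26161251 and from 26269618 to 26274380, at 4.91 and 4.76 kb. In the third window, peaks of 4.08 kb (27803802 to 27807884), 3.69 kb (27831781 to 27835473), 2.96 kb (27774329 to 27777293) and 2.64 kb (27838828 to 27841463) followed the widest. The second window held the narrowest set. Its 5 peaks measured 3138, 2087, 1427, 1210 and 698 bases, the widest from 27111697 to 27114834. They formed 2 groups, of 3 and 2 peaks, in which neighbours were parted by at most 200 bases.

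The score of a peak is read as the caller's -10 log10 p and reaches a ceiling near 3100. It describes peaks within a list only. At the ceiling were 13 of 40 H3K4me3 peaks of the windows (32.5%) and 12 of 162 of the flanks (7.41%), against 13.9% of the whole list. The 13 were wide, with a median of 4083 bases (2087 to 6056), and the other 27 had a median of 1427 bases (400 to 4763). Of the window H3K27ac peaks, 20 of 79 (25.3%) were at the ceiling and 3 of 141 (2.13%) in the flanks, against 6.01% of the list.

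**Figure D3:**
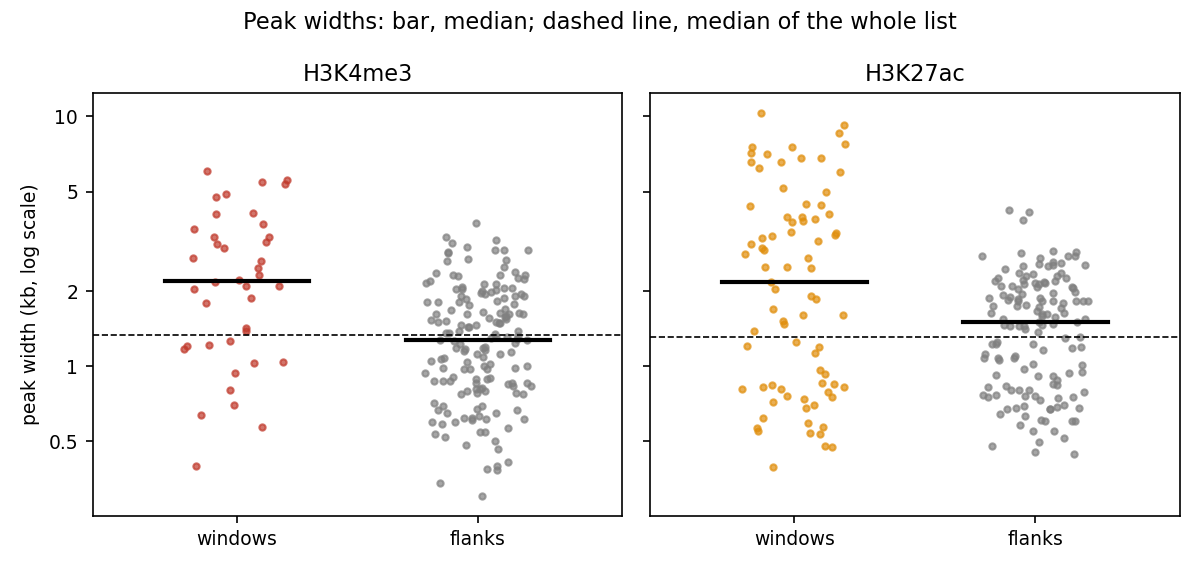
Widths of H3K4me3 and H3K27ac peaks (kb, log scale) in the windows (coloured) and flanks (grey), 1 point per peak, with a bar at the median and a dashed line at the median of the whole list. H3K4me3 medians were 2186 bases in the windows and 1276 in the flanks, and the H3K27ac points of the windows reach 10.4 kb where those of the flanks end at 4.23 kb.

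The centres of neighbouring H3K4me3 peaks were 8.38 kb apart at the median in the windows (quartiles 4.46 and 13.4, over 37 pairs of neighbours) and 9.72 kb in the flanks (quartiles 4.13 and 18.3, 158 pairs). Over the whole list the median was 44.3 kb. Neighbours lay within 10 kb in 21 of 37 pairs (56.8%), against 50.6% in the flanks and 22.9% of the list. The median distance was 10.4 kb in the first window, 1.99 kb in the second and 6.88 kb in the third. The largest distance within a window was 32.3 kb.

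The 3 windows nevertheless held stretches without H3K4me3. The longest ran in the first window from 26057315 to 26087261 (29.9 kb), where H3K27ac covered 13.3% and no other mark was present. In the third window it ran from 27807885 to 27831780 (23.9 kb), with H3K27ac over 9.53% and H3K4me1 over 5.89%. In the second it measured 8.78 kb, from 27102919 to 27111696, with H3K27ac over 32.9% and H3K4me1 over 16.4%. The cluster was thus not marked evenly from end to end, and the quiet stretches held no H3K27me3.

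H3K27ac covered more of the windows than H3K4me3, and its widest peaks were wider, though the median peak was not. Its 79 peaks had a median width of 2175 bases (quartiles 827 and 4024), beside 2186 for H3K4me3, against 1500 in the flanks and 1310 over the list. Of these, 16 (20.3%) were wider than the 4727 bases that 5% of the list exceeds, and 0 of 141 in the flanks were. The widest lay in the third window, from 27774129 to 27784478 (10.4 kb), followed there by 9.20 kb (27837752 to 27846954) and 8.57 kb (27799975 to 27808549). The widest of the first window measured 7.77 kb (26121079 to 26128849), 7.55 kb (26247227 to 26254772) and 7.51 kb (26268215 to 26275728). Those of the second were 6.83 kb (27097499 to 27104328), 4.45 kb (27111813 to 27116266) and 2.17 kb (27094315 to 27096489).

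Centres of neighbouring H3K27ac peaks were 4.02 kb apart at the median, against 12.1 kb in the flanks and 12.1 kb over the list. The gap between the edges of neighbours had a median of 371 bases in the windows and 10779 in the flanks. Neighbours lay within 10 kb in 66 of 76 pairs (86.8%), against 42.3% in the flanks and 45.8% of the list. Joined over gaps of up to 1 kb, the window peaks made 26 tracts, and 4 of these were longer than 20 kb, a length chosen after the values were seen. They ran from 26182231 to 26219511 (37.3 kb, with 6 H3K4me3 peaks), from 27774129 to 27809365 (35.2 kb, 7 H3K4me3 peaks), from 27829896 to 27864393 (34.5 kb, 3 H3K4me3 peaks) and from 26017128 to 26051583 (34.5 kb, 4 H3K4me3 peaks). They ranked 6, 10, 13 and 14 among the 48432 tracts of the genome, of which 80 (0.165%) passed 20 kb. The longest tract of the flanks was 4.74 kb. Counted as tracts, H3K27ac density was 1.65 times that of the flanks, and the spacing of 14.7 kb was close to the 14.6 kb there.

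Within the windows H3K4me3 was almost everywhere acetylated. H3K27ac touched 39 of 40 H3K4me3 peaks (97.5%, 95% Wilson interval 87.1 to 99.6), 103 of 162 in the flanks (63.6%, 55.9 to 70.6) and 61.7% of the list. It covered 34 of the 40 from edge to edge (85%), against 22.2% in the flanks and 35% of the list. It was present on both sides within 2 kb of the edges for 39 of 40, and in the peak or within 2 kb for 40 of 40, against 67.9% in the flanks and 65.4% of the list. The peak without H3K27ac had the lowest score of the 40, at 58.8. It ran from 26129481 to 26129880, at 400 bases the narrowest of the 40, and 89% of it lay under H3K36me3. By bases, 98.8% of the H3K4me3 sequence of the windows was acetylated, and 67.4% of that in the flanks.

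The reverse did not hold, since much of the acetylated sequence carried no H3K4 methylation peak. Of the 230 kb under H3K27ac in the windows, 43% also had H3K4me3, 11.7% had H3K4me1 without H3K4me3, and 45.3% had neither. In the flanks 15% of acetylated bases had neither, and over the whole genome 19.3%. The share was 47.0% in the first window, 23.4% in the second and 46.4% in the third. By peaks, 35 of 79 H3K27ac peaks of the windows touched H3K4me3 (44.3%, 33.9 to 55.3), against 71.6% in the flanks and 27.7% of the list. Of the 79, 48 touched H3K4me1 (60.8%), against 56.7% in the flanks and 79.5% of the list, and 5 touched 2 or more H3K4me3 peaks (6.33%), against 2.13% in the flanks and 1.87% of the list. The 35 that touched H3K4me3 had a median width of 4383 bases, and the 44 without H3K4me3 had one of 844 bases, close to the 812 bases of such peaks in the flanks.

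**Figure D4:**
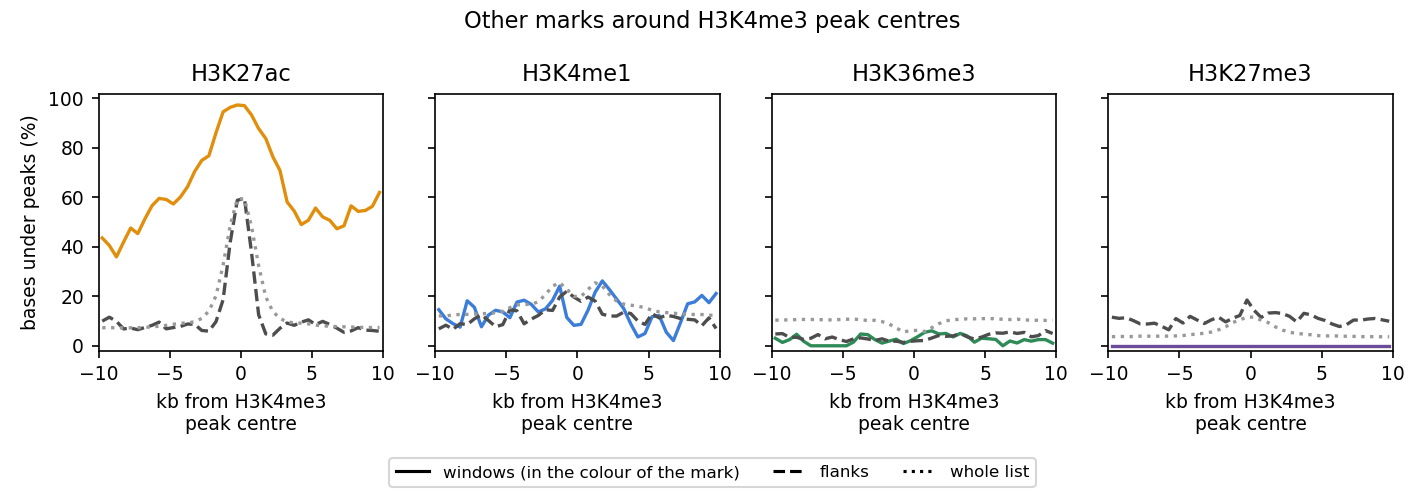
Share of bases under peaks of 4 marks, in percent, in bins of 500 bases up to 10 kb from the centre of H3K4me3 peaks, for the 40 peaks of the windows (solid), 162 of the flanks (dashed) and 28639 of the list (dotted). H3K27ac around the window peaks stays above the other curves throughout, and the H3K27me3 line of the windows lies at 0.

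Averaged over the window peaks, the acetylation reached far beyond H3K4me3, but this did not hold for every peak. For example, the H3K4me3 peak from 26087262 to 26088518 lay in an H3K27ac peak that ran only from 26087175 to 26088773. The neighbouring H3K27ac peaks ended at 26067809 and began at 26100507. Which gene this H3K4me3 peak belongs to was not determined, and HFE also lies among the members of the first window. Within 0.5 kb of the centre of H3K4me3 peaks, H3K27ac covered 97.2% of the bases in the windows, 59.2% in the flanks and 59.4% over the list. At 2 to 4 kb it covered 68.3%, 7.31% and 11% in the same order, and at 5 to 10 kb 51%, 7.77% and 7.60%. Some of the distant cover in the windows belongs to the next H3K4me3 peak, since H3K4me3 itself covered 19.6% of the bases at 5 to 10 kb, against 10.9% in the flanks.

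H3K4me1 was present at the borders of H3K4me3 peaks in short peaks. The 71 H3K4me1 peaks of the windows had a median width of 747 bases, against 730 in the flanks and 807 over the list, and a median score of 95.4. They lay at 165 per Mb and covered 13.3% of the windows, 1.97 times the 6.73% of the flanks. H3K4me1 touched 22 of 40 H3K4me3 peaks (55%, 39.8 to 69.3), close to the 49.6% of the list and the 48.8% of the flanks. At the centres of the window H3K4me3 peaks it covered 8.46% of the bases, against 18.8% in the flanks and 19.9% over the list. At 2 to 4 kb it covered 16.2%, 12.2% and 18.0%. Counting the peak and 2 kb beyond its edges, 35 of 40 held H3K4me1 (87.5%, 73.9 to 94.5), against 70.4% in the flanks and 64.9% of the list. Among the 40, it flanked 12 on both sides and 21 on a single side, and for 7 neither 2 kb border had any.

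The H3K4me1 peaks themselves were mostly acetylated. Of the 71, 28 touched H3K4me3 (39.4%, against 30.1% in the flanks and 9.93% of the list), all of them with H3K27ac, 29 touched H3K27ac without H3K4me3 (40.8%, 30.2 to 52.5), 14 touched neither (19.7%, 12.1 to 30.4) and 0 touched H3K4me3 alone. In the flanks 57.7% touched neither. H3K27ac touched 80.3% of the window peaks, 33.2% of those in the flanks and 32.2% of the list. The longest stretch of the first window without H3K4me1, from 26054515 to 26104464 (49.9 kb), includes the longest without H3K4me3.

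H3K36me3 had few peaks in the windows. Its 9 peaks covered 1.72% of the windows, against 3.45% of the flanks and 3.60% of the chromosomes, and the first 116 kb of the first window held none. The flanks ranged from 1.02% before the first window to 5.47% between the first and the second, so the windows lay below 3 of the 4 flanks and above the other. Among the stretches of 290 kb, the first window with 7 peaks and 1.73% lay above the median stretch, which had 2 peaks and 0.438%, and 37.0% of the stretches had as large a share or larger. The strongest H3K36me3 peak lay in the third window from 27794289 to 27796307 (2019 bases, score 1392). It touched no H3K4me3, and H3K27ac covered 92.6% and H3K4me1 90.2% of it. In the first window the strongest ran from 26225136 to 26226610 (1475 bases, score 702), across the edge of an H3K4me3 peak.

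The other 7 H3K36me3 peaks were at most 854 bases wide with scores from 56.9 to 243. A group of 4 stood together from 26125727 to 26126580, 26127799 to 26128512, 26129525 to 26129911 and 26130187 to 26131026, the first 2 inside one of the widest H3K4me3 peaks and the others beyond its end. The rest were from 26149152 to 26149450, 26164275 to 26164709 and 27114253 to 27114627. In the other direction, 5 of the 9 H3K36me3 peaks touched H3K4me3 (26.7 to 81.1%), 6 H3K27ac (35.4 to 87.9%) and 5 H3K4me1 (26.7 to 81.1%). The shares were 3.84%, 10% and 33.3% of the list and 6.25%, 3.91% and 28.1% in the flanks. These 3 marks also covered more of the windows (23.4%, 53.6% and 13.3%) than of the chromosomes (1.52%, 3.72% and 6.04%). The contacts of 9 peaks are therefore not read as a trait of H3K36me3. H3K36me3 touched 4 of 40 H3K4me3 peaks (10%, 3.96 to 23.1), against 8 of 162 in the flanks (4.94%, 2.52 to 9.44) and 14.5% of the list. Within 2 kb of the edges or in the peak it was found for 7 of 40 (17.5%), against 17.3% in the flanks and 31.8% of the list. At 10 kb it was found for 13 of 40 (32.5%, 20.1 to 48.0), against 35.8% in the flanks and 51.5% of the list.

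H3K27me3 was absent from the 430 kb of the windows and frequent around them. The flanks held 198 of its peaks, which covered 4.90% of their sequence, more than the 2.39% of the chromosomes. The cover was 1.54% before the first window, 7.70% between the first and the second, 2.08% between the second and the third, and 7.86% after the third. Since the nearest H3K27me3 peak lay 35.6 kb outside a window, none could touch any of the 40 H3K4me3 peaks or lie within 10 kb of one. This restates the absence and adds no further observation. In the flanks 36 of 162 H3K4me3 peaks were touched (22.2%, 16.5 to 29.2), and over the list 15%. Within 10 kb the share was 48.1% in the flanks and 29.3% of the list. Stretches of 290 kb without H3K27me3 were common elsewhere. They made up 58.9% of 1771 stretches with 0 H3K4me3 peaks, 35% of 5983 with 1 to 4 and 22.7% of 1667 with 5 to 9. Stretches without a peak of any mark are not among the 1771 and would raise that share. The share was 16.1% of 254 with 10 to 14, 11.5% of 78 with 15 to 19 and 42.3% of 26 with 20 or more.

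The stretch free of H3K27me3 around the first window ran from 25864769 to 26501045, 636 kb in all, with the nearest peak 145 kb before and 201 kb after the window. Around the second window it measured 219 kb (26965657 to 27184388) and around the third 193 kb (27712210 to 27905557), where H3K27me3 began 35.6 kb after the window. Of the 78288 stretches between neighbouring H3K27me3 peaks, 1.24% were as long as that of the first window, 4.03% as that of the second and 4.43% as that of the third. Those of 636 kb or more held 42.4% of all bases free of the mark, and those of 193 kb or more 73.1%.

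**Figure D5:**
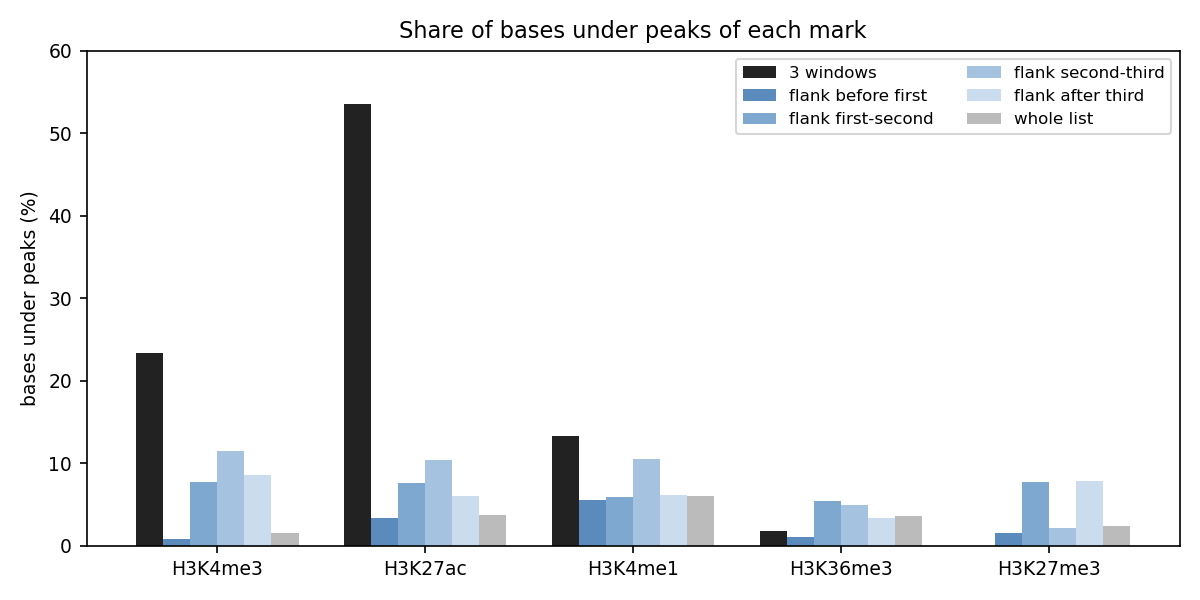
Share of bases under peaks of each mark, in percent, in the 3 windows together (black), each of the 4 flanks (blue shades) and the whole list (grey). H3K4me3, H3K27ac and H3K4me1 are highest in the windows, H3K36me3 is below 3 of the 4 flanks and H3K27me3 has no bar in the windows.

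The edges of the windows differed for H3K4me3. The next peak lay near the ends of the third and the second window, and 12.0 to 24.6 kb away at the other edges. The nearest peak outside the third window began 0.076 kb after its end, from 27870076 to 27871708 (1633 bases, score 1638), while the last H3K27ac member, from 27868794 to 27871723, crossed that end. At the start of the same window an H3K4me3 peak from 27758984 to 27761304 (2321 bases, score 1978) crossed the border and was counted. After the second window the next peak lay 4.52 kb away, from 27124520 to 27126005 (1486 bases). Around the first window the nearest were 16.0 kb before (25991940 to 25993990, 2051 bases) and 12.0 kb after (26312030 to 26313008, 979 bases). Before the second and the third window they ended 24.6 and 19.5 kb away, from 27064122 to 27065391 and from 27740013 to 27740496.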

How the data were processed

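Chromatin immunoprecipitation with sequencing of 5 histone marks gave 1 peak list per mark, which the labels of both replicates name as combined. CASAVA 1.8.2, Bowtie2 and MACS 1.4 on hg19 are named in the submitters' processing notes, and the sources used here give no settings, control library or duplicate filter. The score deposited by the authors has no header and was read, from its lowest value of 50.0 in the lists, as -10 log10 of the peak's p-value. It depends on depth and width. Input and DNase-seq data were not used here.

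Chromosomes 1 to 22 and X were used, and 179 to 555 peaks per list elsewhere were left out. Positions count from 1 with both ends included. Flank peaks touched no window. Covered bases were clipped to each region. Median intervals are 95% order-statistic intervals. The members, windows and lists were chosen with earlier results of these data known. Regions named were the 5 widest H3K4me3 and 3 widest H3K27ac peaks of each window, the longest stretches without H3K4me3, and the H3K36me3 peaks, and other regions were named after their values were seen. Alternatives were a score of at least 100, joining over 1 kb, peak centres, other flanks, each window alone, overlap of 50% of the smaller peak, and motifs on the gene's own strand. On simulated lists of 400 peaks the interval code matched a base-by-base count in 7 quantities, with 0 mismatches. Planned protein comparisons were not run for want of protein sequences. Wilson intervals treat peaks as independent. Nothing says that the replicates came from separate cultures. Tables and intervals were made with pandas 2.3.3, scipy 1.17.1 and numpy 2.4.6, and plots with matplotlib 3.10.9, in Python 3.11.15.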

Additional observations from a re-analysis of the deposited data

How the results depend on the processing

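Of 88 recomputed values, 72 stayed within 1.5 times the reported ratio or inside its interval, 14 moved beyond and 2 changed direction. The changes of direction came with only the 1 Mb before the first window as flank, where the windows-to-flanks ratio of H3K36me3 became 1.31 for density and 1.69 for covered share. With that flank, the ratios were 23.3 and 30.6 for H3K4me3 and 7.66 and 16.0 for H3K27ac, since it holds few peaks. Density ratios for the second window alone were 3.53 for H3K4me3 and 0.893 for H3K36me3, and for the third alone 0.244 for H3K36me3. Joining H3K27ac over 1 kb gave a density ratio of 1.65, a median width of 5228 bases (1741 in the flanks) and a spacing of 14.7 kb, against 14.6 kb in the flanks, so the closer spacing of H3K27ac rests on peaks parted by short gaps. For H3K27ac, scores of at least 100 gave a median width of 3267 bases (1792 in the flanks) and a spacing of 5.20 kb (15.9 kb there). The share of window H3K4me3 peaks touching H3K27ac became 100%. On the gene's own strand the octamer was in 22.9% of members. H3K27me3 had 0 peaks in the windows under each setting, but none of the settings could have added one. Its values of 0 are counted among the 72 that stayed. Depth limits are unknown, as the lists hold no read counts. No paired analysis was possible because the replicates were combined in 1 list per mark.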

Other observations

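Low H3K36me3 was uncommon among stretches dense in H3K4me3. In 26 stretches of 290 kb with 20 or more H3K4me3 peaks, leaving out those that touch a window, H3K36me3 covered 30.8% at the median, and 0 of the 26 were at or below the 1.73% of the first window. H3K27ac covered 7.84% of them at the median, against 50.4% of the first window. In the 78 stretches with 15 to 19 H3K4me3 peaks the medians were 21.8% and 17.0%, and 1 was at or below the window in H3K36me3. The trait was not particular to the windows. In the flank between the second and the third, H3K4me3 lay at 79.7 peaks per Mb and H3K36me3 covered 4.97%. The values were 66 and 3.32% after the third, 51.9 and 5.47% between the first and the second, and 4 and 1.02% before the first. No H3K27me3 peak was found in 11 of the 26 (42.3%) and 9 of the 78 (11.5%). These groups were chosen after the data were seen and were given no test.

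Between the histone genes the RefSeq table lists many tRNA genes, 47 between the members of the first and the second window and 51 between those of the second and the third, and 0 among the members of any window. The protein-coding genes between the first and the second group include 6 butyrophilin genes, BTN1A1, BTN2A1, BTN2A2, BTN3A1, BTN3A2 and BTN3A3, beside HMGN4, ABT1 and ZNF322. A further histone gene, H2AC12, is no member and stands between the members of the second and the third window in that table. These places are bounded by the listed members and not by the windows. Whether H2AC12 lies inside the second window or in the flank was therefore not determined. No H3K4me3 peak, of the windows or the flanks, was assigned to any of these genes.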
